A study of Mus musculus with 4 samples.

Results

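Colonic monocytes caught between the monocyte and the macrophage state were counted and described here as single cells that held messages of both states. Of 20428 barcodes that passed the quality limits, 106 were such transition cells: 8 in control 1, 2 in control 2, 47 in stress 1 and 49 in stress 2. A transition cell had at least 3 unique molecular identifiers (UMIs, 1 per captured RNA molecule) of Lyz2, the myeloid lysozyme gene, at least 2 of Ly6c2 and Chil3 together, and at least 3 of C1qa, C1qb and C1qc together. It also had at most 1 UMI of Cd3e, Cd3d and Cd3g and at most 1 of Cd79a and Cd79b, which are T cell and B cell genes. Cells that passed the same limits with at most 2 C1q UMIs are called C1q-low monocytes (415 cells), and those with at least 3 C1q UMIs and at most 1 UMI of Ly6c2 and Chil3 are called macrophages (603 cells). The 3 classes together are the mononuclear phagocytes of each library.

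CD45+ leukocytes had been sorted by flow cytometry from the total colon of wild-type C57BL/6 mice and loaded on a 10x Genomics droplet platform. The stress mice had been restrained daily for 7 days, and the control mice had been given the control treatment, and each group was profiled as 2 libraries. The number of animals in a library was not given, and nothing said that the libraries came from separate animals, so a p-value here measures only the spread between these 4 libraries. The comparison asks how the cells on the way from monocyte to macrophage differed in number and in gene expression after repeated stress.

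The macrophages of the adult gut wall are renewed from blood monocytes. Ly6C-high monocytes enter through the chemokine receptor CCR2, and then lose Ly6C, gain MHC class II and finally express the complement C1q chains and other macrophage genes, a series often called the monocyte waterfall. Ly6c2 encodes the Ly6C antigen, Chil3 encodes a chitinase-like protein made by young monocytes, and H2-Aa encodes an MHC class II chain that presents peptides to CD4 T cells. C1qa, C1qb and C1qc encode the chains of complement C1q, which tissue macrophages make.

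The libraries differed in depth and quality. After the limits they held 2546, 5436, 8319 and 4127 barcodes in the order control 1, control 2, stress 1 and stress 2, which is the order of every set of 4 values below. The median barcode had 2942, 2676, 2176 and 4559 UMIs, and between 11.1 and 26.0% of barcodes, most in stress 2, had been above the mitochondrial limit. Control 1 stood apart in its macrophages, which took 8.68% of its kept barcodes against 0.717 to 3.78% in the other libraries. No pair of libraries shared more than 19 barcodes. The transition cells of a library held 53585, 6460, 229202 and 473049 UMIs in all, so the control sums were thin, and 1 UMI in control 2 was worth 155 CPM. CPM, the unit of every level below, are the summed UMIs of a class in a library, scaled to 1e6 UMIs in all.

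All 5 label genes were found in the cells. Ly6c2 was detected in 7, 2, 41 and 48 transition cells, Chil3 in 1, 0, 19 and 18, C1qa in 8, 1, 37 and 33, C1qb in 8, 2, 45 and 49, and H2-Aa, which the gates did not use, in 8, 2, 45 and 48. The control cells passed the monocyte gate almost only through Ly6c2, while 19 of 47 and 18 of 49 stress cells had Chil3. The transition cells were not C1q-poor: their median C1q sum was 35, 30.5, 16 and 22 UMIs, and all 3 chains were detected in 8, 1, 31 and 31 of them. Median depth was 6800, 3230, 4787 and 9905 UMIs, against 5788, 7148, 4276 and 8699 in C1q-low monocytes and 4110, 5528, 4414 and 6167 in macrophages. It was above both other medians in control 1, stress 1 and stress 2, below both in control 2, and below their sum in each library. Depth alone cannot tell whether some transition cells were doublets of the other 2 classes. Scrublet marked 1 transition cell, in control 1, as a likely doublet.

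Few cells sat close to the C1q gate and more sat close to the Ly6c2 and Chil3 gate. Just inside the C1q gate, at 3 UMIs, there were 0, 0, 4 and 1 cells, and just outside it, at 2 UMIs, 0, 0, 3 and 2, while 39, 31, 206 and 111 monocytes had no C1q UMI at all. At exactly 2 UMIs of Ly6c2 and Chil3 there were 4, 1, 19 and 10 transition cells, and just outside, at 1 UMI, 6, 1, 30 and 11 macrophages. The gate on Ly6c2 and Chil3 therefore cut through a continuous range of cells, whereas the C1q gate lay in a sparse one.

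Free RNA in droplets can add UMIs of genes that a cell does not express, so B cell barcodes, which should lack these messages, were read in the same way. Of B cell barcodes, 1.06, 0.227, 0.498 and 0.639% had at least 3 C1q UMIs and 0.352, 0.189, 0.467 and 0.320% had at least 2 UMIs of Ly6c2 and Chil3, at median depths of 2157, 2367, 1720 and 3329 UMIs. Among barcodes in the C1q gate, the share with at least 2 UMIs of Ly6c2 and Chil3 was 3.49, 4.88, 20.1 and 23.9%. The shares in C1q-high cells were thus above the B cell level in all 4 libraries, at greater depth. Plasma cell barcodes (at least 20 Jchain UMIs) were deeper, with medians of 17797, 17756, 12426 and 22504 UMIs, and 2.22, 0.552, 0.595 and 2.84% of them had at least 3 C1q UMIs. Ly6c2 is also expressed by T cells and plasma cells, of which 4.62 to 11.0% and 35.3 to 56.0% had at least 2 UMIs of Ly6c2 and Chil3. The limits on Lyz2, Ly6c2 with Chil3 and C1q were all met by 3, 0, 0 and 13 plasma cell barcodes (1.33% in control 1 and 1.68% in stress 2), but none of the 106 transition cells had 20 Jchain UMIs.

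Transition cells took a larger share of the mononuclear phagocytes in both stress libraries than in either control. They made up 2.97% of phagocytes in control 1 (95% Clopper-Pearson interval 1.29 to 5.78%), 2.78% in control 2 (0.338 to 9.68%), 10.3% in stress 1 (7.65 to 13.4%) and 15.0% in stress 2 (11.3 to 19.4%). The mean was 2.88% ± 0.139 in controls and 12.7% ± 3.36 under stress (SD, n = 2 each), a 4.40-fold ratio with no overlap between the groups. The two-sided exact permutation test gave p = 0.333, which is the smallest value 2 against 2 libraries can give, so no share can pass 0.05 here. These intervals cover counting error only.

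**Figure D1:**
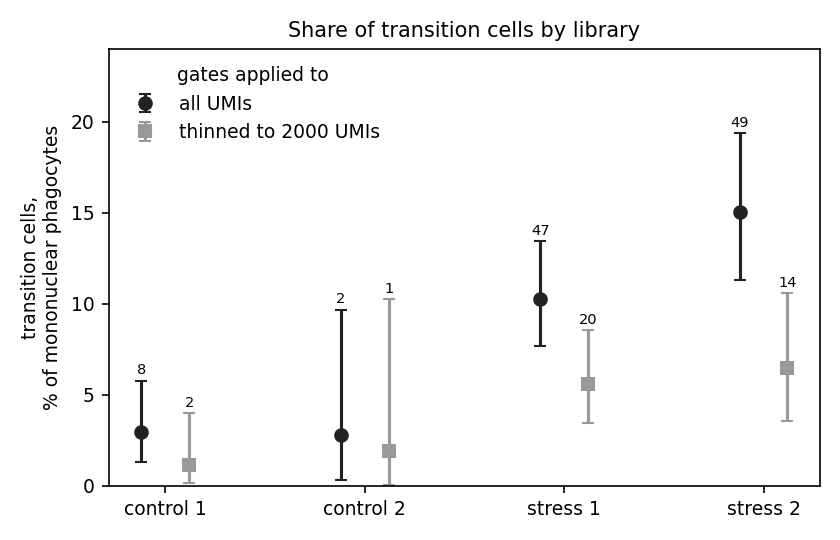
Transition cells as a percentage of mononuclear phagocytes in each library, with 95% Clopper-Pearson intervals (counting error only) and the number of transition cells above each bar end; black, gates on all UMIs; grey, gates on cells thinned to 2000 UMIs. With all UMIs the controls lie at 2.78 and 2.97% and the stress libraries at 10.3 and 15.0%; after thinning the order of the groups is the same, with wide control intervals.

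The same order was found with depth made equal. After every barcode had been thinned to 2000 UMIs, with 1898, 4045, 4554 and 3646 barcodes left, 2, 1, 20 and 14 cells passed all gates, which is 1.12, 1.92, 5.62 and 6.45% of phagocytes. The group means were 1.52% ± 0.570 and 6.03% ± 0.589 (SD, n = 2), and the exact permutation p was again 0.333. Without control 1 the difference in the unthinned share was 9.88 percentage points, against 9.78 with it. Of all kept barcodes, transition cells took 0.314, 0.0368, 0.565 and 1.19%, a mean of 0.176% ± 0.196 against 0.876% ± 0.440 (exact permutation p = 0.333). That difference of 0.701 percentage points was 0.389 without stress 2.

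The neighbouring classes differed less evenly. C1q-low monocytes took 1.07% ± 0.708 of kept control barcodes and 2.81% ± 0.178 of kept stress barcodes (SD, n = 2; exact permutation p = 0.333). Macrophages took 4.70% ± 5.63 and 3.01% ± 1.08 (exact permutation p = 1), with the controls on both sides of the stress libraries. For every 100 C1q-low monocytes there were 20, 6.45, 21.1 and 40.5 transition cells, so by this ratio control 1 and stress 1 were alike. As a share of C1q-high cells, transition cells took 4.19% ± 0.979 in controls and 22.0% ± 2.70 under stress, with no overlap (exact permutation p = 0.333).

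Each cell was placed with genes outside the gates. At 2000 UMIs per cell, the UMIs of 28 macrophage-list genes (such as Apoe, Ms4a7 and Cd81) were taken as a percentage of the UMIs of these and of 16 monocyte-list genes (such as Plac8, Hp and S100a4). The median position score of transition cells was 57.2, 60.3, 49.7 and 42.4%. It lay above that of C1q-low monocytes, at 20.4, 27.2, 22.4 and 23.7%, and below that of macrophages, at 92.4, 63.6, 61.4 and 71.0%, in every library. Since the gates chose the classes, this order is a description and was not tested.

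**Figure D2:**
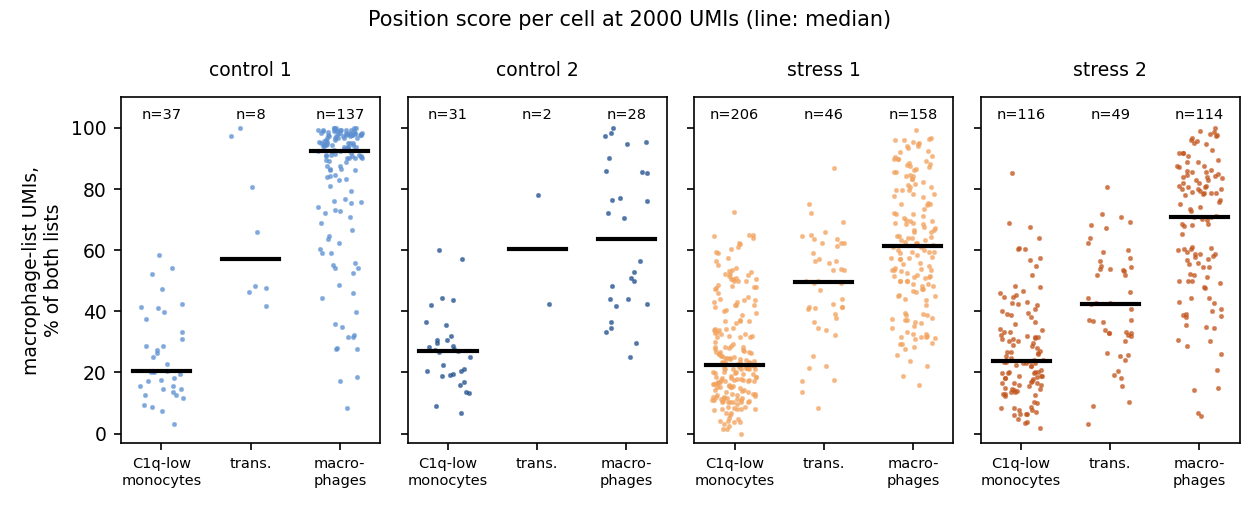
Position score of each cell, the UMIs of the macrophage list as a percentage of those of the macrophage and monocyte lists, after thinning to 2000 UMIs, in C1q-low monocytes, transition cells (trans.) and macrophages of the 4 libraries; bars are medians and n is the number of cells. Transition cells sit between the other classes in each library, at medians of 57.2, 60.3, 49.7 and 42.4%, and their cells overlap with both.

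Within the stress libraries the transition cells were spread widely on this axis. Their scores ran from 8.51 to 87.0% in stress 1 and from 3.17 to 80.8% in stress 2. The group means of the library medians were 58.8% ± 2.19 in controls and 46.0% ± 5.19 under stress (SD, n = 2, exact permutation p = 0.333). This difference rests on 8 and 2 control cells. The exact permutation p was 0.667 without the marked doublet, and 0.667 with at least 6 C1q UMIs. It was also 0.667 with 0 UMIs allowed of the T cell and B cell gate genes, and 1 with the gates set after thinning. In each of these settings the control values overlapped with those of stress. MHC class II messages placed the cells in the same order: the median cell had 122.5, 112.5, 110 and 85 UMIs of the 10-gene MHC class II list per 2000, against 30, 15, 43.5 and 49 in C1q-low monocytes and 167, 130.5, 121 and 130.5 in macrophages.

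Gene by gene, the transition cells of the 2 stress libraries, with 47 and 49 cells, lay between the other classes for most genes that separated them. Over the monocyte, macrophage and MHC class II lists, a gene was used where the 2 outer classes differed by at least 1 on the log2(CPM + 1) scale and 1 of them reached 50 CPM. In stress 1, 26 of 28 such genes had an intermediate level in transition cells, and in stress 2, 27 of 29. Choosing genes by that difference in the same library favours an intermediate level, so these counts are a description and were not tested. With 0 for the C1q-low level and 100 for the macrophage level, the median gene stood at 67.6 in stress 1 and 27.7 in stress 2. Over all genes of the table the share between was 76.0% (203 of 267) in stress 1 and 81.5% (220 of 270) in stress 2, with medians of 58.4 and 35.9. So the intermediate level was not particular to the lists, and the stress 2 cells stood nearer to the monocytes than the stress 1 cells by both measures. The gap was smaller at equal depth: with gates after thinning to 2000 UMIs, where 20 and 14 cells passed, the list genes stood at medians of 53.3 and 39.2.

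The 3 lists did not stand at the same point. In stress 1 and stress 2 the median gene of the MHC class II list stood at 80.0 and 52.7, that of the macrophage list at 61.5 and 28.7, and that of the monocyte list at 58.6 and 16.8. In control 1 the 39 usable genes stood at a median of 53.6, with 34 between the classes. In control 2, with 2 cells, the median was 101 and 13 of 34 genes were between, so that library placed its cells at the macrophage level.

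The genes named next for their placement were picked from the lists after their values were seen. Among monocyte genes, Plac8, a cysteine-rich protein of young myeloid cells, stood at 6205 CPM in C1q-low monocytes, 4546 in transition cells and 1431 in macrophages of stress 1, and at 5365, 4137 and 1146 in stress 2. Hp, the haptoglobin gene, stood at 458, 266 and 48.8 CPM in stress 1 and at 371, 243 and 20.7 in stress 2. Both genes were thus still high in transition cells. Ifitm6 was already low in them, at 39.3 against 362 CPM in C1q-low monocytes of stress 1 and 97.2 against 317 in stress 2. S100a4, a calcium-binding protein of migrating cells, split the libraries, with 524 CPM in the transition cells of stress 1, near the macrophages at 413, and 1158 in those of stress 2, near the C1q-low monocytes at 1334.

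Ccr2, the receptor that brings monocytes into the tissue, was as high in transition cells as in C1q-low monocytes of the stress libraries, at 903 against 865 CPM in stress 1 and 896 against 868 in stress 2, and lower in macrophages, at 600 and 496. In controls it was lower in transition cells, at 541 against 904 CPM in control 1 and 774 against 967 in control 2, from 29 and 5 Ccr2 UMIs.

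The MHC class II genes H2-Aa, H2-Ab1, H2-Eb1 and Cd74, the invariant chain, were well above the C1q-low level. H2-Aa stood at 4913 CPM in C1q-low monocytes, 10733 in transition cells and 12400.5 in macrophages of stress 1, and at 5521, 8346 and 11879 in stress 2. Cd74 stood at 7837, 15567 and 17862 CPM, and at 10328, 14702 and 21290. In controls H2-Aa stood at 12261 and 15016 CPM in transition cells, against 15522 and 13300.4 in macrophages. Of the 4 libraries, stress 2 had the lowest H2-Aa level in transition cells.

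Macrophage genes differed in how near they stood to the macrophage level. Lgmn, the gene of the lysosomal protease legumain, was near the macrophage level in stress 1, with 452, 1008 and 1080 CPM along the 3 classes, and intermediate in stress 2, with 473, 624 and 1098. Apoe, the apolipoprotein E gene, was intermediate at 7749 and 5264 CPM in transition cells, between 5114 and 8770 in stress 1 and between 4115 and 10016 in stress 2. Cd81, a tetraspanin, stood at 3.26, 34.9 and 322 CPM along the classes in stress 1 and at 6.91, 23.3 and 392 in stress 2, which is 49.3 and 28.7 on the scale from 0 to 100. Mrc1, the mannose receptor of resident macrophages, was at 39.3 and 29.6 CPM against 116 and 166, and Cx3cr1, the fractalkine receptor of gut macrophages, at 56.7 and 52.9 against 114 and 115. Retnla, a gene of alternative activation, had 0 UMIs in the 106 transition cells, but 2208, 2479, 100 and 231 CPM in macrophages. H2-Aa, H2-Ab1, H2-Eb1 and Cd74 thus stood nearer to the macrophage level than Cd81, Mrc1 and Cx3cr1, which is an order of levels and not of time. Cx3cr1 in stress 1 was below the C1q-low level, at 5.85 against 6.07 in log2(CPM + 1). Its outer classes differed there by 0.77, too little to be placed. Not every macrophage-list gene followed the order in stress 1: Lgmn, C3ar1 and Vcam1 stood at 92.0, 97.3 and 129, against 84.4 for H2-Aa. In stress 2 they stood at 32.8, 39.7 and 7.74, against 53.9.

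**Figure D3:**
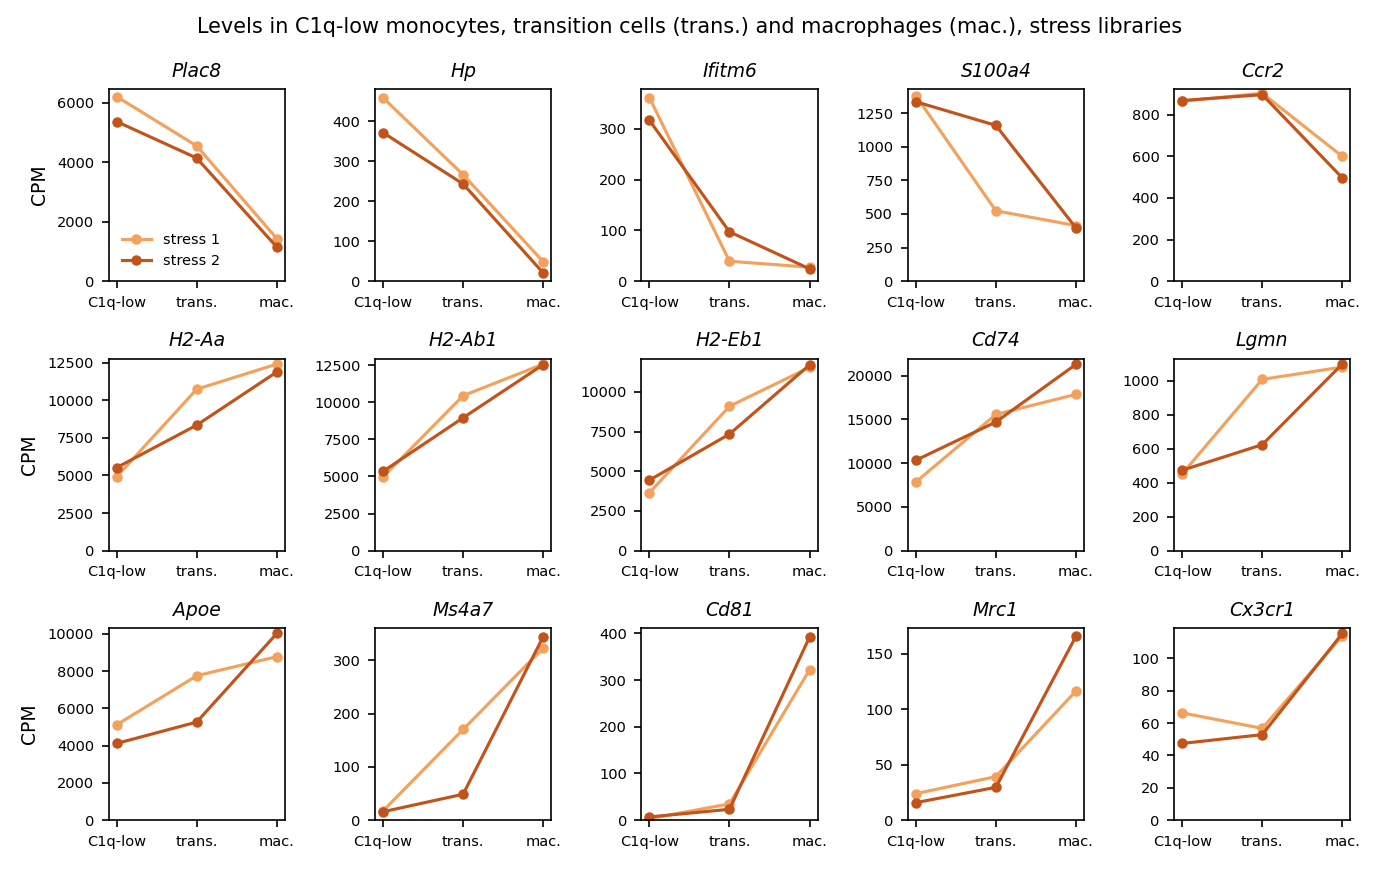
CPM of 15 genes in C1q-low monocytes, transition cells (trans.) and macrophages (mac.) of stress 1 and stress 2; each axis starts at 0 and 1 line is 1 library. Plac8 and Hp are lower in each class than in the one before, Ccr2 stays at the C1q-low level, H2-Aa and Cd74 are already high in transition cells, and Cd81, Mrc1 and Cx3cr1 are below the macrophage level in both libraries.

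No gene marked the transition cells by a level of its own, apart from Saa3. In both stress libraries, 1562 genes reached 100 CPM in any of the classes, not necessarily in transition cells. Of these, 1 was at least 1 log2 higher in transition cells than in both other classes in both libraries, and 0 were lower than both. Saa3, an acute-phase serum amyloid A gene of inflamed macrophages, had 0, 0, 157 and 125 CPM in transition cells, at most 28.6 CPM in C1q-low monocytes and at most 15.0 in macrophages. It was found in 4 cells of each stress library, and 1 cell held 69.4% of its UMIs in stress 1 and 86.4% in stress 2, so its level came from single cells.

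The transition cells of a stress library were themselves ordered. Across the 46 and 49 cells thinned to 2000 UMIs, the monocyte-list and MHC class II UMIs ran against each other, with Spearman's rho of -0.56 in stress 1 and -0.77 in stress 2. C1q UMIs ran with MHC class II UMIs (rho 0.57 and 0.56) and against monocyte-list UMIs (rho -0.46 and -0.64). These are descriptions over cells of 1 library, in which a fixed total makes 1 list fall as another rises, and carry no p.

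**Figure D4:**
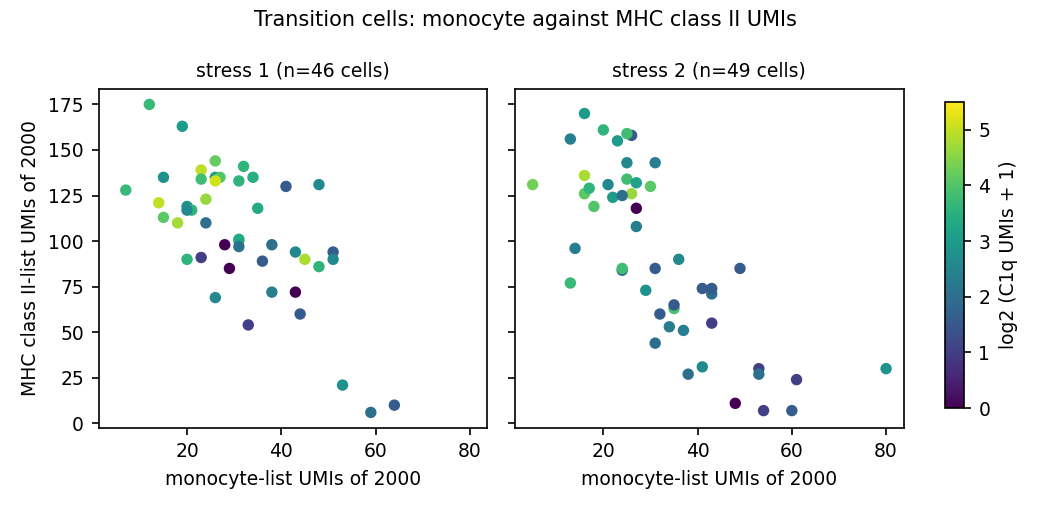
Each point is 1 transition cell of stress 1 or stress 2, thinned to 2000 UMIs, with its monocyte-list UMIs against its MHC class II UMIs and its C1q UMIs in colour (log2 scale). Cells with few monocyte-list UMIs have many MHC class II UMIs, with rho -0.56 in stress 1 and -0.77 in stress 2, and the cells with the most C1q lie at the upper left.

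Cells split at the median C1q share of their UMIs showed the same order in single genes. Plac8 stood at 6235 CPM in the cells below the median and 2802 in those above it in stress 1, and at 5014 and 3272 in stress 2. S100a4 went from 859 to 177 CPM and from 1792 to 533, and Lyz2 from 18886 to 11466 and from 20949 to 9815. H2-Aa went the other way, from 8760 to 12770 CPM and from 6355 to 10311, and Ms4a7, a membrane gene of macrophages, from 60.4 to 284 and from 12.8 to 83.8. These genes, apart from the gate gene Lyz2, were outside the gates. Ccr2 differed less, from 979 to 825 CPM and from 992 to 802. For Plac8 the gradient ran on into the macrophages. In stress 1 it stood at 5749 CPM in C1q-high cells with at least 5 UMIs of Ly6c2 and Chil3. It was at 4315 CPM with 3 or 4 such UMIs, 3757 with 2, 2548 with 1 and 1176 with 0. In stress 2 the same steps gave 5275, 3114, 2710, 1951 and 1047 CPM. Apoe had no such order, at 8328, 9778, 6071, 6039 and 9393 CPM in stress 1 and 3716, 6535, 7398.5, 5171 and 10611 in stress 2. Ccr2 was highest at the first step and uneven after it, at 1101, 753, 841, 863 and 540 CPM and at 1077, 864, 461, 601 and 484.

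Stress and control were then compared gene by gene in the transition cells. The comparison used the 4 summed libraries, so 8 and 2 control cells stood against 47 and 49 stress cells. Of 2196 genes that passed the filter on low counts, 47 differed at an edgeR adjusted p under 0.05, which is 2.14% of the genes tested, 30 higher (1.37%) and 17 lower (0.774%) under stress. Chil3, a gate gene, is 1 of the 30 and is not counted as a finding. Genes for chemokines and other proteins induced by interferon gamma, and for the inflammatory response, were among the higher ones, and Lyz1, Hmox1 and Cd81 among the lower ones. Before adjustment, 248 genes (11.3%) were under an unadjusted p of 0.05. Groups that did not overlap are common at this depth: 26.7% of tested genes were higher in both stress libraries than in both controls and 19.7% were lower in both.

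The calls rested on few control molecules. Of the 30 higher genes, 25 had 0 UMIs in control 2, 6 had 0 in both controls and 25 had fewer than 10 control UMIs in all. Of the 17 lower genes, 13 had at least 50% of their control 1 UMIs in 1 cell, and for 7 of them it was the same cell. That cell, with 6432 UMIs, 58 C1q UMIs and no Ly6c2, held 19 of 21 Hmox1, 73 of 97 Jun and 23 of 28 Egr1 UMIs of control 1. Leaving it out, a choice made after seeing the data, gave 26 calls, 19 higher and 7 lower, of which 25 were among the 47. The count of calls was 115 without control 1, 90 without control 2, 2 without stress 1 and 1 without stress 2, where the lone library of a group is assumed to vary like the other group.

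The 21-gene list of interferon gamma response genes had 13 genes above the filter, of which 3 rose, 0 fell and 10 did not pass, with a median log2 change of 1.22 against 0.15 over all tested genes. Cxcl9, a chemokine that draws CXCR3-bearing T cells, stood at 131, 0, 1627 and 867 CPM, from 7, 0, 373 and 410 UMIs in 1, 0, 19 and 26 cells. Both stress libraries were above both controls, and the log2 change was 3.47 (SE 0.63, edgeR adjusted p = 2.51e-05). The summed groups differed 9.56-fold (95% counting interval 4.62 to 23.9). Counting intervals of summed groups, here and below, treat each UMI as independent and leave out the spread between cells and libraries. Cxcl10, another CXCR3 ligand, stood at 168, 0, 907 and 1216 CPM from 9, 0, 208 and 575 UMIs, with a log2 change of 2.90 (SE 0.59, edgeR adjusted p = 0.000209). Gbp2, a guanylate-binding GTPase that acts against intracellular microbes, stood at 299, 0, 929 and 1167 CPM, with a log2 change of 2.08 (SE 0.53, edgeR adjusted p = 0.00789). The groups did not overlap for either gene.

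The 250 bases before the start of the 2 chemokine genes are shown because both genes rose and lie close together, Cxcl9 at chr5:92321347-92328079 and Cxcl10 at chr5:92346638-92348889, both on the minus strand (GENCODE on GRCm38, protein coding). The sequences are RefSeq's on GRCm38.p6, 5′ to 3′ on the gene's strand, at chr5:92328080-92328329 for Cxcl9 and chr5:92348890-92349139 for Cxcl10. Capitals mark matches to an interferon-stimulated response element (ISRE; GAAA, any 2 bases, GAAA), a gamma-activated site (GAS; TTC, any 3 bases, GAA) or a kappaB site (GGG, any 3 bases, TTCC), searched on both strands, with no overlap between matches shown.
Cxcl9: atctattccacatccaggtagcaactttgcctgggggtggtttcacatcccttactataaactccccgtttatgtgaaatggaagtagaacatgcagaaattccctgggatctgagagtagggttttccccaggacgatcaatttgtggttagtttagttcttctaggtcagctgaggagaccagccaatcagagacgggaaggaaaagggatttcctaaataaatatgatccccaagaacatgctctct
Cxcl10: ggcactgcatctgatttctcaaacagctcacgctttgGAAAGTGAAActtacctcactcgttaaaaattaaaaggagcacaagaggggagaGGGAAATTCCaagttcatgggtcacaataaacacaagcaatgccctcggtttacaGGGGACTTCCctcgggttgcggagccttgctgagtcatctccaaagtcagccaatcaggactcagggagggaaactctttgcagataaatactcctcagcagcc
The Cxcl10 window held an ISRE match 213 to 204 bases before the start and kappaB matches at 159 to 150 and 104 to 95 bases, while none of the 3 motifs was in the Cxcl9 window. Over 32851 promoter windows of this length, 2.98% held the ISRE letters, 7.02% the GAS letters and 4.65% the kappaB letters. A match is a description of the letters, and no match says only that these letters are not in this window.

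The inflammatory list of 26 genes had 15 above the filter, of which 4 rose (Ptgs2, Il1rn, Ccl4 and Saa3), 1 fell (Cxcl1) and 10 did not pass, with a median log2 change of 1.18. Ptgs2, the inducible cyclooxygenase of prostaglandin synthesis, stood at 93.3, 155, 729 and 518 CPM and had a log2 change of 2.64 (SE 0.59, edgeR adjusted p = 0.00126). Il1rn, the antagonist of the interleukin-1 receptor, stood at 112, 0, 502 and 452 CPM, with 2.29 (SE 0.58, edgeR adjusted p = 0.00804). Both stress libraries were above both controls for these genes. Ccl4, a chemokine of activated macrophages, stood at 37.3, 0, 183 and 442 CPM, but from 2 control UMIs, and the summed groups differed 10.7-fold (counting interval 2.94 to 89.1). Il1b, the interleukin-1 beta gene, was at 4311, 3560, 7853 and 8310 CPM with no overlap and did not pass (log2 1.18, edgeR adjusted p = 0.220). Tnf, at 149, 0, 52.4 and 67.7 CPM from 8, 0, 12 and 32 UMIs, was under the filter and was not tested. The list's called genes thus include both an inducer of inflammation and an antagonist.

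Genes of the monocyte list were higher under stress in part. Of 16 genes 13 were above the filter, 3 rose (Plac8, Clec4e and Ly6i), 0 fell and 10 did not pass, with a median log2 change of 0.78. Plac8 stood at 1474, 1238, 4546 and 4137 CPM, from 79, 8, 1042 and 1957 UMIs, with a log2 change of 1.76 (SE 0.51, edgeR adjusted p = 0.0317) and a summed ratio of 2.95 (counting interval 2.38 to 3.69). It was in 5, 1, 47 and 48 cells, the best counted of the higher genes, and without the single control 1 cell, which held 0 of them, the log2 change was 1.61 (edgeR adjusted p = 0.0975). Clec4e, the receptor Mincle for cord factor and dead cells, stood at 74.7, 0, 637 and 645 CPM, with 3.30 (SE 0.65, edgeR adjusted p = 0.000109). Ly6i had 0 UMIs in both controls and 161 and 159 CPM under stress, at least 3.19-fold higher when 3 counts are allowed over the control group. Ccr2, at 541, 774, 903 and 896 CPM, did not pass (log2 0.71, edgeR adjusted p = 0.623). The median C1q sum, 35 and 30.5 UMIs in controls against 16 and 22 under stress, moved with these genes, and its part in them was not tested.

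Prdx5, Ccrl2, Bcl2a1b and Arl5c were also called higher. Prdx5, a peroxiredoxin, was counted in nearly every cell, at 392, 619, 2404 and 2313 CPM from 21, 4, 551 and 1094 UMIs, with a log2 change of 2.53 (SE 0.57, edgeR adjusted p = 0.00164). Ccrl2, a chemerin-binding receptor, stood at 131, 0, 1025 and 700 CPM, with 2.93 (SE 0.59, edgeR adjusted p = 0.000209). Bcl2a1b, a survival protein of the BCL2 family whose copies share near-identical sequence, stood at 74.7, 0, 515 and 611 CPM, and reads of its copies may be exchanged. Arl5c stood at 93.3, 0, 711 and 554 CPM, with 2.95 (SE 0.61, edgeR adjusted p = 0.000317). In each of these genes both stress libraries were above both controls.

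Igha and Igkc, which plasma cells make, were also among the higher genes. Igha stood at 56.0, 0, 532 and 712 CPM in transition cells and Igkc at 168, 310, 1051 and 1279, with log2 changes of 3.68 (SE 0.69, edgeR adjusted p = 3.57e-05) and 2.69 (SE 0.58, edgeR adjusted p = 0.000626). The 9 plasma cell markers together stood at 541, 774, 2116 and 2615 CPM in transition cells, at 648, 677, 1873 and 2773 in C1q-low monocytes and at 991, 553, 2250 and 3529 in macrophages, so all 3 classes were high in the same libraries. Derl3 was at 0 in the transition cells of all 4 libraries and Mzb1 in those of both controls. With the immunoglobulin genes left out, 45 other genes were called. Of the markers of other cell types, T and NK genes were highest in control 1. The summed T list was at 299, 0, 26.2 and 31.7 CPM in transition cells, against 0, 4.84, 16.3 and 14.8 in C1q-low monocytes, and the NK list at 392, 0, 118 and 129. In control 1 these were 16 and 21 UMIs, of which 8 and 5 were in the cell marked as a doublet. Without that cell the lists stood at 162 and 323 CPM. The marked cell held 4 UMIs of Lyz2, 1 of H2-Aa and 0 of Cd74. The B list was at 18.7, 0, 26.2 and 29.6 CPM. The part of these cells in the calls was not tested apart from the fit without the marked doublet, which gave 45 calls. Of the neutrophil markers, S100a8 and S100a9 were at 0 in all 4 libraries and only Csf3r was found. The cDC1 list stood at 112, 0, 91.6 and 114, the cDC2 list at 74.6, 0, 91.6 and 31.7, the epithelial list at 37.3, 0, 17.5 and 35.9 and the fibroblast list at 18.7, 0, 4.36 and 6.34.

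Lyz1, the lysozyme gene of Paneth cells and some macrophages, and a close copy of Lyz2, had the smallest p among the lower genes. It stood at 728, 774, 82.9 and 27.5 CPM, from 39, 5, 19 and 13 UMIs, with a log2 change of -3.87 (SE 0.44, edgeR adjusted p = 4.94e-15). It was found in 3, 1, 4 and 7 cells, 1 cell held 26 of the 39 UMIs of control 1, and reads of Lyz1 and Lyz2 may be exchanged. Both controls were above both stress libraries, by 16.1-fold in the sums (counting interval 9.97 to 26.2). Cd81 stood at 317, 310, 34.9 and 23.3 CPM, with -3.46 (SE 0.56, edgeR adjusted p = 7.20e-07), from 17 and 2 control UMIs, of which 1 cell held 15. That control 1 cell also held all 7 control UMIs of Cxcl9, with 10 of Ccl5 and 3 of the NK-list gene Nkg7. It had 11 UMIs of Lyz2 and 105 of H2-Aa. The calls of Lyz1 and Cd81 thus rested on a small number of control cells. Lyz1 was in 3 of 8 and 1 of 2 control cells against 4 of 47 and 7 of 49 stress cells, a larger share in controls.

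Of the 28-gene macrophage list 18 were above the filter, 0 rose, 2 fell (Cd81 and Mrc1) and 16 did not pass, with a median of -0.38. Mrc1 was at 74.7, 774, 39.3 and 29.6 CPM, from 4, 5, 9 and 14 UMIs, with -2.20 (SE 0.61, edgeR adjusted p = 0.0424). Its 5 UMIs in control 2 were in 1 cell. Without the single control 1 cell, which held 0 of its 4 UMIs there, the log2 change was -2.37 (edgeR adjusted p = 0.0680). Nme2, a nucleoside diphosphate kinase, stood at 168, 155, 34.9 and 14.8 CPM (log2 -2.85) and Rgl1, a Ras-pathway exchange factor, at 261, 155, 56.7 and 46.5 (log2 -2.26), and both kept their calls without that cell. Cx3cr1, at 224, 0, 56.7 and 52.9 CPM, was under the filter.

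Hmox1, the haem-degrading enzyme, stood at 392, 155, 34.9 and 31.7 CPM, with a log2 change of -3.41 (SE 0.52, edgeR adjusted p = 7.12e-08), and the immediate-early genes Jun and Egr1 were called lower as well. Egr1 was at 523, 0, 39.3 and 97.2 CPM (log2 -2.52, SE 0.47, edgeR adjusted p = 3.14e-05) and Jun at 1810, 155, 410 and 509 (log2 -1.54, SE 0.38, edgeR adjusted p = 0.00593). The groups overlapped for Jun and Egr1, since control 2 was below both stress libraries. Without the control 1 cell described above, Jun gave 0.070 and Egr1 -0.25 (edgeR adjusted p = 0.978 and 0.958), and Hmox1 was under the filter. Of the 14 immediate-early genes 13 were above the filter, 2 fell and 11 did not pass, with a median of -0.81. Nupr1, Phlda1 and Anxa1 were called lower too, from 25, 18 and 24 UMIs in control 1 and 0 in control 2, and none of the 3 was called without that cell.

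Antigen presentation genes did not pass. Of 9 MHC class II list genes above the filter 0 were called, with a median of -0.05, and of 14 MHC class I list genes 0 were called, with a median of 0.50. H2-Aa stood at 12261, 15016, 10733 and 8346 CPM, with a log2 change of -0.26 (SE 0.46, edgeR adjusted p = 0.897). H2-T23, a non-classical class I gene, stood at 243, 155, 349 and 499 CPM, with 0.94 (SE 0.47, edgeR adjusted p = 0.425). Glycolysis genes had a median of 0.98 over 14 tested genes and lysosome genes 0.24 over 13, with 0 called in each. Pgk1, a glycolytic kinase, was at 93.3, 0, 275 and 290 CPM (log2 1.80, edgeR adjusted p = 0.114). Type I interferon genes had 4 of 18 above the filter, the alternative activation list 3 of 13 and the cell cycle list 0 of 16, with 0 called in each.

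Restraint raises glucocorticoid hormones in mice, so genes that answer to them were read as a list. Of 14 glucocorticoid-response genes 8 were above the filter, 1 rose, 0 fell and 7 did not pass, with a median of -0.31. Sgk1, a serum- and glucocorticoid-regulated kinase, stood at 18.7, 0, 140 and 292 CPM from 1, 0, 32 and 138 UMIs, and the summed groups differed 14.5-fold (counting interval 2.57 to 577). Tsc22d3, the GILZ gene, stood at 261, 0, 209 and 159 CPM and did not pass (log2 -0.31, edgeR adjusted p = 0.890). Nr3c1, the glucocorticoid receptor gene, was at 93.3, 0, 69.8 and 50.7 CPM and under the filter. The list as a whole thus had 1 called gene, from 1 control UMI.

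**Figure D5:**
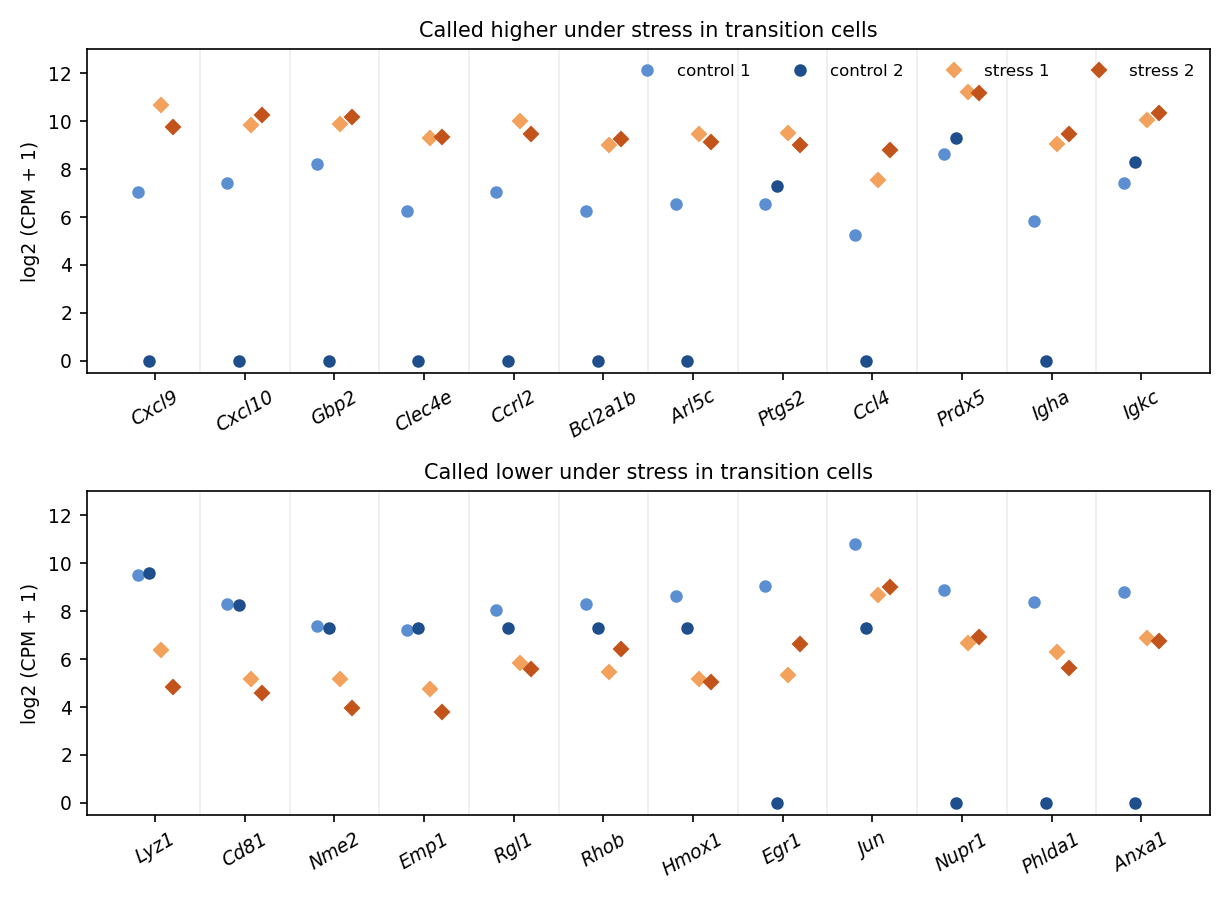
Levels of the 12 genes shown in each direction that were called in transition cells, as log2(CPM + 1) in the 4 libraries; a point at 0 is a library with no UMI. In the upper panel both stress libraries lie above both controls for every gene; in the lower panel control 2 lies at or below the stress libraries for Egr1, Jun, Nupr1, Phlda1 and Anxa1.

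Whether the difference between stress and control was larger in transition cells than in their neighbours was tested by an interaction with the library as a block. Against C1q-low monocytes 8 of 3608 genes (0.222%) passed. Clec4e stood at 74.7, 0, 637 and 645 CPM in transition cells but at 616, 406, 675 and 579 in C1q-low monocytes. The difference of log2 changes was 3.24 (SE 0.77, edgeR adjusted p = 0.0202). Transition cells of controls were thus below the C1q-low monocytes and those of stress level with them. But the control transition cells held only 4 Clec4e UMIs, 3 of them in 1 cell, and 7 Ccrl2 UMIs. Ccrl2 behaved alike, at 131, 0, 1025 and 700 CPM against 570, 401, 617 and 662 (2.72, SE 0.70, edgeR adjusted p = 0.0475). For Cxcl9, Cxcl10, Gbp2 and Plac8 the interaction did not pass.

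Against macrophages 4 of 4901 genes (0.0816%) passed. Ccl4 stood at 37.3, 0, 183 and 442 CPM in transition cells and at 1184, 572, 208 and 234 in macrophages, so it was higher under stress in the former and lower in the latter (5.72, SE 0.88, edgeR adjusted p = 3.41e-07). Lyz1 stood at 657, 276, 446 and 328 CPM in macrophages, where it did not pass, and the difference was -3.07 (SE 0.57, edgeR adjusted p = 0.000159). Without stress 1 or stress 2, 0 and 0 genes passed against C1q-low monocytes and 0 and 1 against macrophages, and without control 1 or control 2, 135 and 75, and 140 and 54. In their own fits, 4 of 5541 genes (0.0722%) were called in C1q-low monocytes, all higher, Igha, Igkc and Jchain among them. In macrophages 92 of 6765 (1.36%) were called. Igha and Igkc were thus called higher in transition cells and in C1q-low monocytes alike, and Igha in macrophages too. Plac8, Clec4e and Gbp2 were also called higher in macrophages, and Cd81, Jun and Egr1 lower. Cxcl9 and Cxcl10 were not called in either class. The interferon gamma list had a median log2 change of 1.13 in C1q-low monocytes and 0.656 in macrophages, against 1.22 in transition cells.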

How the data were processed

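The authors deposited raw UMI counts for each gene in each barcode. Per the submitters' processing notes they came from Cell Ranger (5 and 5.0 are both named) on mm10, while the file headers name software 3.1.0. Annotation and barcode filtering were not given in the sources used here. Barcodes needed 500 UMIs, 200 genes and at most 10% mitochondrial UMIs. The transition cells, the 24 gene lists and the other classes were chosen with earlier results of these data known.

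Counts were summed per class and library and tested with edgeR 4.0.16 (R 4.3.3; TMM, filterByExpr, robust quasi-likelihood test, Benjamini-Hochberg adjusted p under 0.05). The fit gave nearly all genes of transition cells 1 shared spread (prior degrees of freedom infinite at the upper end). Library sums were also simulated with 1 fixed spread for all genes and no single cells. On these the fit recovered 75.9% of genes changed 4-fold in transition cells, with 3 false calls. Such counts cannot show how often a call that rests on 1 control cell is false. Interactions used class by group with a library block, in which 5.03% of 4-fold differences were recovered against C1q-low monocytes. Shares and medians were tested with two-sided exact permutation tests. DESeq2 1.42.0, other gates, left-out replicates and a replicate block were alternatives. Equal replicate numbers were not shown to pair libraries (r = -0.05 in transition cells).

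Cells were thinned by drawing UMIs without replacement at seed 1. Too shallow for this were 0, 0, 1 and 0 transition cells, 3, 0, 17 and 5 C1q-low monocytes and 84, 11, 29 and 42 macrophages. Doublets were marked with Scrublet in scanpy 1.11.5 at an expected 0.8% per 1000 barcodes and kept. Its automatic threshold was used in control 2, where it marked 93 barcodes. In the other libraries that threshold marked under 0.5%, so the top-scoring barcodes at the expected rate were marked. These were 52 in control 1, 554 in stress 1 and 136 in stress 2. Named genes were at most 12 called genes per direction by smallest p, called interaction genes (at most 6 per direction), up to 4 genes per list by smallest p, and Ccr2, H2-Aa, Tnf, Il1b, Retnla, Mrc1, Cx3cr1, Nr3c1 and Tsc22d3. Saa3 and the genes named for placement or for the split by C1q were chosen after their values were seen. A few genes are not reported here. Coordinates are 1-based, from GENCODE vM21, which held 30934 of 31053 identifiers.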

Additional observations from a re-analysis of the deposited data

Results flagged for a closer look

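The change with stress differed between transition cells and C1q-low monocytes in 8 genes by the edgeR interaction test, each given here as the difference of log2 changes. It was -3.33 for Hmox1, -2.85 for Egr1, -3.52 for Ccl3 and -3.04 for Rrad, and 3.50 for Sdc4, 3.24 for Clec4e, 2.97 for Bcl2a1b and 2.72 for Ccrl2. The 4 genes that were lower had 21, 28, 17 and 18 UMIs in the transition cells of control 1 and 1, 0, 0 and 0 in those of control 2. One control 1 cell held 19 of the Hmox1, 23 of the Egr1, 12 of the Ccl3 and 16 of the Rrad UMIs, and without it the 4 higher genes alone passed. DESeq2 called 0 of the 3608 genes, with 124 at an unadjusted p under 0.05, against 224 in edgeR.

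Against macrophages the change differed in 4 genes. It was 5.72 for Ccl4, -3.07 for Lyz1, -2.44 for Ccl5 and -2.75 for Rrad. Ccl5 stood at 1045, 0, 340 and 452 CPM in transition cells, and 46 of its 56 UMIs in control 1 came from the cell marked as a doublet. Ccl4 rested on 2 UMIs in the control transition cells and 1184 and 572 CPM in control macrophages. DESeq2 called 2 of these genes. What lay behind these differences was not tested.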

How the results depend on the processing

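With 8 and 2 control cells the call counts moved with most settings, and the cause was not tested. In transition cells the 47 calls became 17 with DESeq2, 20 without the count filter, 23 with at least 6 C1q UMIs, 15 with gates after thinning, 12 with equal cells per library, 26 without 1 control 1 cell and 7 with a replicate block (a pairing the data do not show), and ranged from 1 to 115 with a replicate left out. RLE size factors gave 48, the mitochondrial limit of 25% 45, doublets left out 45 and the stricter lymphocyte gates 47. Against C1q-low monocytes the 8 calls became 0 with DESeq2, 4 without the filter, 5 with at least 6 C1q UMIs, 3 after thinning and 4 without the control 1 cell, and ranged from 0 to 135. Against macrophages the 4 calls became 2 with DESeq2 and 7 with equal cells, and ranged from 0 to 140. The sign reversed without control 1, which leaves 2 control cells, for 8 genes, whose log2 changes with a replicate left out ran from -3.27 to 7.18 (Egr1), -2.55 to 6.84 (Phlda1), -2.02 to 2.58 (Jun), -2.10 to 7.76 (Nupr1), -2.06 to 7.74 (Anxa1), -1.43 to 9.59 (Ccl5), -0.74 to 0.87 (Cd74) and -3.27 to 6.42 (Cxcl1). Jun also reversed after thinning (1.01), and Jun and Nupr1 without the control 1 cell (0.070 and 0.048). Over all named genes and settings 842 values were the same, 143 weaker, 20 stronger and 11 reversed. The difference in shares kept its direction under every setting run for it, and ranged from 7.41 to 12.2 percentage points of phagocytes, from 0.389 to 1.01 of kept barcodes and from -16.4 to -9.08 for the position score with a replicate left out.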
